A study of Homo sapiens with 8 samples.

Results

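The genes described here encode the lysosome: the enzymes and cofactors of its lumen, the proteins of its membrane and the proton pump that acidifies it. They were chosen by name as 51 genes, 28 for the lumen, 7 for the membrane, 15 for the pump and 1 transcription factor, TFEB. A probe set, the group of short probes that reads 1 transcript on the array, counted for a gene only if it was annotated to that gene alone. This gave 124 probe sets for 49 of the 51 genes, out of 19775 genes with such a probe set on the array. GLB1 and ATP6V1F had no probe set annotated to them alone, and those of ARSA and TFEB were too dim to be tested, so 47 genes were tested.

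H1 is an established line of human embryonic stem cells, here kept on gelatin-coated plates over irradiated mouse embryonic fibroblasts. A flow cytometer sorted the cells by forward and side scatter, which follow size and granularity, into 4 small and 4 large sorts, called biological repeats by the submitters. Both groups are untreated cells of this 1 line, the gates were set on scatter and not on a marker, and every sort had an Affymetrix U133 Plus 2.0 array to itself. The comparison asks which transcripts differ between small and large stem cells, and a positive difference means higher in small cells.

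Lysosomes break down material delivered by endocytosis and autophagy. Most lumenal hydrolases are made in the endoplasmic reticulum, tagged with mannose 6-phosphate in the Golgi and carried to the lysosome, where they work at acid pH. The pH is set by the V-ATPase, a rotary pump whose V1 sector in the cytosol splits ATP and whose V0 sector in the membrane conducts protons. TFEB and its relatives TFE3 and MITF activate many of these genes through an E-box called the CLEAR element.

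The arrays differed in brightness, with 75th percentiles of the deposited intensities between 41.9 and 106 units, and were brought to a common distribution. Values are normalized log2 intensities, and with 4 arrays per group their number limits the precision. In bulk RNA of this kind, fewer cells of a type and less RNA per cell cannot be told apart, and the values are relative to the RNA measured. The stem cell markers were bright, with a mean over 9 tested genes of 10.80 to 10.95 on small and 10.98 to 11.17 on large arrays. Of these 9, PODXL, a sialomucin of the cell surface, was 1.97-fold lower in small cells without overlap (log2 difference -0.98 ± 0.15 SE, limma adjusted p = 0.00754), and the other 8 did not pass. Of the fibroblast markers 8 of 9 were tested, none passed, and their mean level was 6.28 to 7.41 on small and 6.46 to 7.67 on large arrays. Of the 7 macrophage markers CD68, CD14, CD163, TYROBP and PTPRC had no tested probe set, and the mean of CSF1R and AIF1 was 4.49 to 5.31 on small and 3.95 to 4.74 on large arrays. AIF1 was higher in small cells (log2 difference 1.64 ± 0.38 SE, limma adjusted p = 0.0464), and its part in the lysosomal differences was not tested. The 3 prime minus 5 prime log2 difference of the GAPDH and ACTB control probe sets, a sign of RNA quality, was 1.94 to 2.66 on small arrays, against 2.91 on large array 1 and 1.83 to 1.89 on large arrays 2 to 4.

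Lysosomal transcripts were lower in small cells for 12 of the 47 tested genes and higher for none. The 12 were the cathepsins CTSC, CTSD and CTSL, the peptidase TPP1, the glycosidases GAA and GUSB, PSAP, PPT1, GRN, the membrane proteins LAMP1 and NPC1, and the pump's accessory subunit ATP6AP2. Their differences lay between -1.28 and -0.65 on the log2 scale, or 1.56-fold to 2.42-fold lower. Lumenal genes made up 9 of the 12, out of 26 tested, membrane proteins 2 of 7 and the pump 1 of 14. Over all 14726 genes tested, 1.69% were lower and 0.299% higher at the same threshold, an adjusted p of 0.05 in limma. The fit took small and large arrays as unpaired, and whether equal replicate numbers shared a culture was not tested. At an unadjusted p under 0.05, 23 of the 47 members were lower and 1 was higher, where 8% of all genes were lower and 8.51% higher.

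The whole set leaned the same way. Of the 47 members, 40 had a difference below 0, against 44% of all genes. For 19 members every small array lay below every large array, and for none the reverse, where the same held for 5.07% and 4.94% of all genes. The median log2 difference was -0.50 for lumenal genes, -0.51 for membrane proteins and -0.22 for the pump, beside 0.05 for all genes. The number of calls depended on single arrays, for the members and for all genes, of which 1.69% were lower in the main fit. It was 3 without small array 1 or small array 2, where 0.408% and 0.537% of all genes were lower. It was 7 without small array 3 or large array 2, where 1.4% and 0.965% were. It was 4 without large array 3 or large array 4, where 0.536% and 0.461% were. Without small array 4 it was 10, where 243 of all genes were lower, beside 249 in the main fit. Without large array 1 it was 15, where 2.43% of all genes were lower. CTSC, PSAP and LAMP1 passed with any 1 array left out. On the scaling as deposited, after centring arrays on their medians, or with the variance trend left out, no member passed in limma. No other gene of the array passed in these settings either. At an unadjusted p under 0.05, 7 members were lower as deposited, where 2.77% of all genes were, 16 after centring, where 4.55% were, and 23 with no trend, where 7.46% were. In these settings 0, 1 and 0 members were higher, where 0.591%, 6.15% and 7.71% of all genes were.

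**Figure D1:**
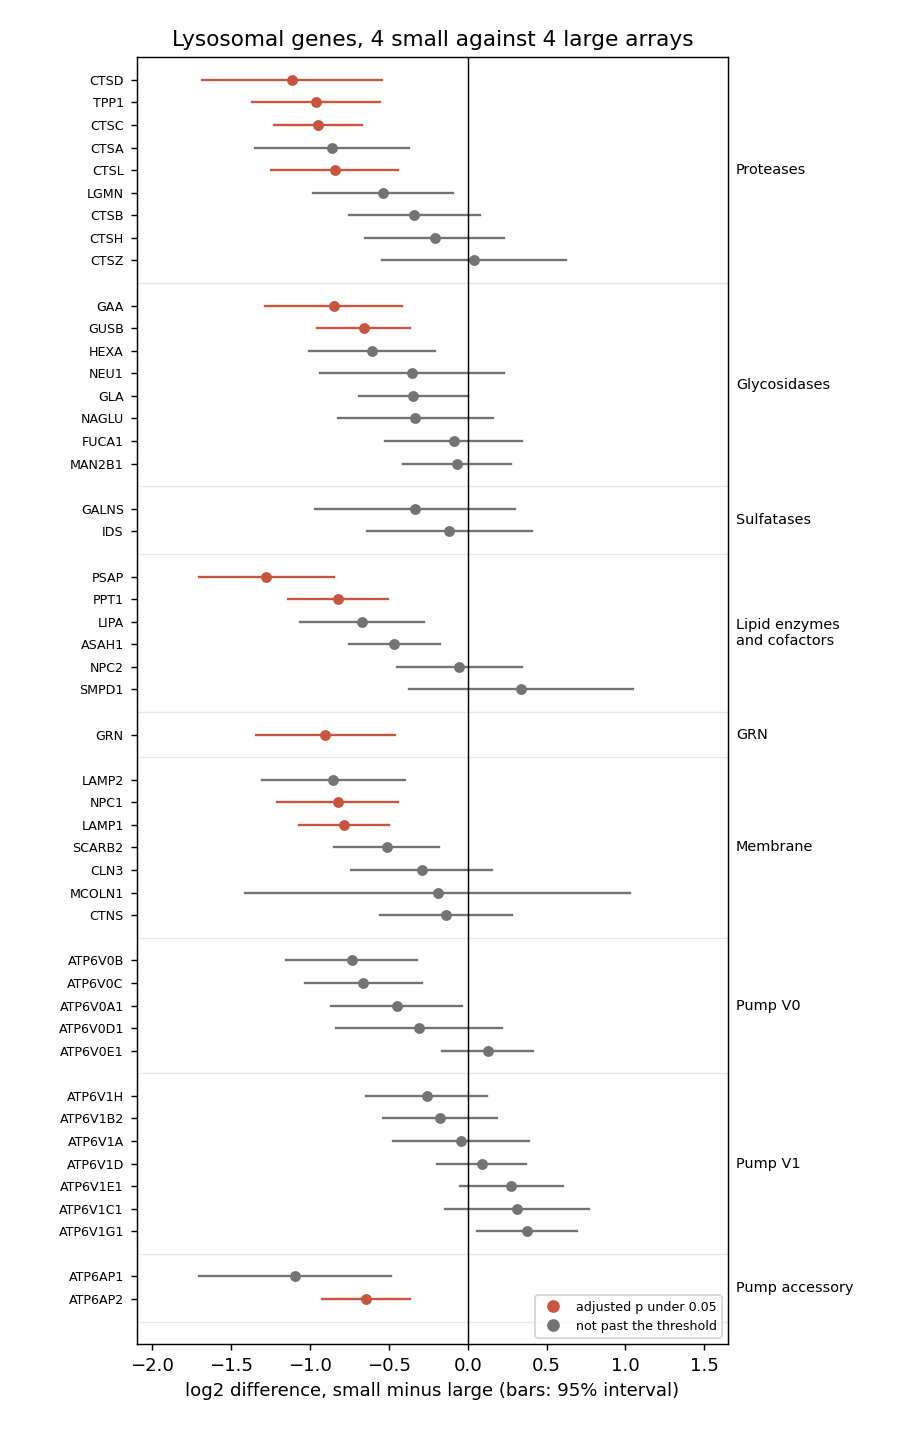
Log2 difference of each of the 47 tested lysosomal genes, small minus large, with its 95% interval (bars), by role and ordered within each role. The 12 genes past the threshold (red) all lie left of 0, and the V1 subunits of the pump lie on either side of 0.

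The lumenal proteases had a median of -0.84 over 9 genes, of which 4 were lower, where 1.69% of all genes were. Their median was -0.53 with the probe sets of each gene averaged. CTSC, which activates serine proteases by trimming dipeptides from their ends, stood at 10.09, 10.23, 9.98 and 10.38 on small arrays 1 to 4, against 11.14, 11.34, 10.90 and 11.08 on large arrays 1 to 4. All small values lay below all large ones, a 1.93-fold lower level (log2 difference -0.95 ± 0.13 SE, n = 4 per group, limma adjusted p = 0.00651). The 3 other CTSC probe sets had differences of -0.58, -0.55 and -0.03 and did not pass, and the mean over all probe sets did not pass either.

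TPP1 removes tripeptides from the amino end of small proteins and is mutated in a childhood neuronal ceroid lipofuscinosis. It had 6.78, 6.94, 7.06 and 7.33 on the small arrays, against 7.61, 8.16, 8.25 and 7.94 on the large arrays. The groups did not overlap and the level was 1.95-fold lower in small cells (-0.96 ± 0.19 SE, limma adjusted p = 0.0236). Of its 4 tested probe sets, another had -0.95 and the other two had -0.01 and 0.39. When probe sets ending in _x_at or _s_at, which can bind several transcripts, were left out, TPP1 rested on the last of these and its difference was 0.39.

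CTSD, the main aspartic protease of the lysosome, was dimmer, at 4.85, 4.79, 4.83 and 4.43 on the small arrays, against 5.22, 6.29, 6.00 and 5.84 on the large arrays. The lowest large value, on array 1, was still above the highest small value. The level was 2.16-fold lower in small cells (-1.11 ± 0.27 SE, limma adjusted p = 0.0495), a call that held in 1 of the 8 fits with 1 array left out. The cysteine protease CTSL had 7.90, 7.98, 7.59 and 7.77 on the small arrays, against 9.18, 8.44, 8.45 and 8.55 on the large arrays. It was 1.80-fold lower (-0.84 ± 0.19 SE, limma adjusted p = 0.0349), with large array 1 standing above the other large arrays, and passed in 1 of 8 such fits. Its near copy CTSV, no member of the set, was lower too (-0.78 ± 0.17 SE, limma adjusted p = 0.0383). The CTSL probe set ends in _s_at, and whether it also bound CTSV was not tested.

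The other proteases did not pass. CTSA, a carboxypeptidase that also protects the enzymes GLB1 and NEU1, had 6.49, 7.17, 6.55 and 7.03 on the small arrays, against 7.36, 8.23, 7.61 and 7.48 on the large arrays. These groups did not overlap, with a difference of -0.86 ± 0.23 SE (limma adjusted p = 0.0722). LGMN, the asparaginyl endopeptidase, had 7.47, 6.62, 6.63 and 7.03 on the small arrays, against 7.49, 7.36, 7.67 and 7.39 on the large arrays, and small array 1 reached into the range of the large ones (-0.54 ± 0.21 SE, limma adjusted p = 0.208). Differences were -0.34 for CTSB, -0.21 for CTSH and 0.04 for CTSZ, and their 95% intervals all held 0.

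PSAP and its neighbours in lipid breakdown included the largest difference of the set. PSAP is the precursor of the saposins, small proteins that present sphingolipids to their hydrolases. It had 9.03, 9.21, 9.68 and 9.47 on the small arrays, against 10.25, 10.42, 11.20 and 10.62 on the large arrays. The groups did not overlap, and the level was 2.42-fold lower in small cells (-1.28 ± 0.20 SE, limma adjusted p = 0.00754). Its second probe set had a difference of -0.999 ± 0.24 SE, with groups that overlapped (limma adjusted p over probe sets = 0.0588).

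PPT1, the thioesterase that removes palmitate from proteins, had 9.55, 9.35, 9.26 and 9.69 on the small arrays, against 10.60, 10.30, 10.19 and 10.05 on the large arrays. It was 1.77-fold lower without overlap (-0.82 ± 0.15 SE, limma adjusted p = 0.0166) and passed in 6 of 8 fits with 1 array left out. LIPA, the acid lipase, had 6.62, 6.82, 6.60 and 6.42 on the small arrays, against 7.32, 7.40, 6.92 and 7.49 on the large arrays, and did not pass (-0.67 ± 0.18 SE, limma adjusted p = 0.0823). ASAH1, the acid ceramidase, had 8.73, 8.73, 8.50 and 8.83 on the small arrays, against 9.07, 9.19, 9.23 and 9.16 on the large arrays. Neither gene's groups overlapped, and the 4 tested ASAH1 probe sets ran from -0.91 to -0.37 (gene: -0.46 ± 0.13 SE, limma adjusted p = 0.0971). The cholesterol carrier NPC2 was at -0.05 ± 0.19 SE and the acid sphingomyelinase SMPD1 at 0.34 ± 0.33 SE, neither of which passed.

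GRN encodes progranulin, a secreted glycoprotein that is cut into granulins in the lysosome. Its values were 6.75, 7.27, 7.37 and 7.64 on the small arrays, against 8.02, 8.53, 8.07 and 8.02 on the large arrays. It was 1.87-fold lower without overlap (-0.90 ± 0.20 SE, limma adjusted p = 0.0405). All 3 of its probe sets passed over probe sets, between -0.90 and -0.85, where 1.3% of all probe sets were lower. The gene's call held in 2 of 8 fits with 1 array left out.

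**Figure D2:**
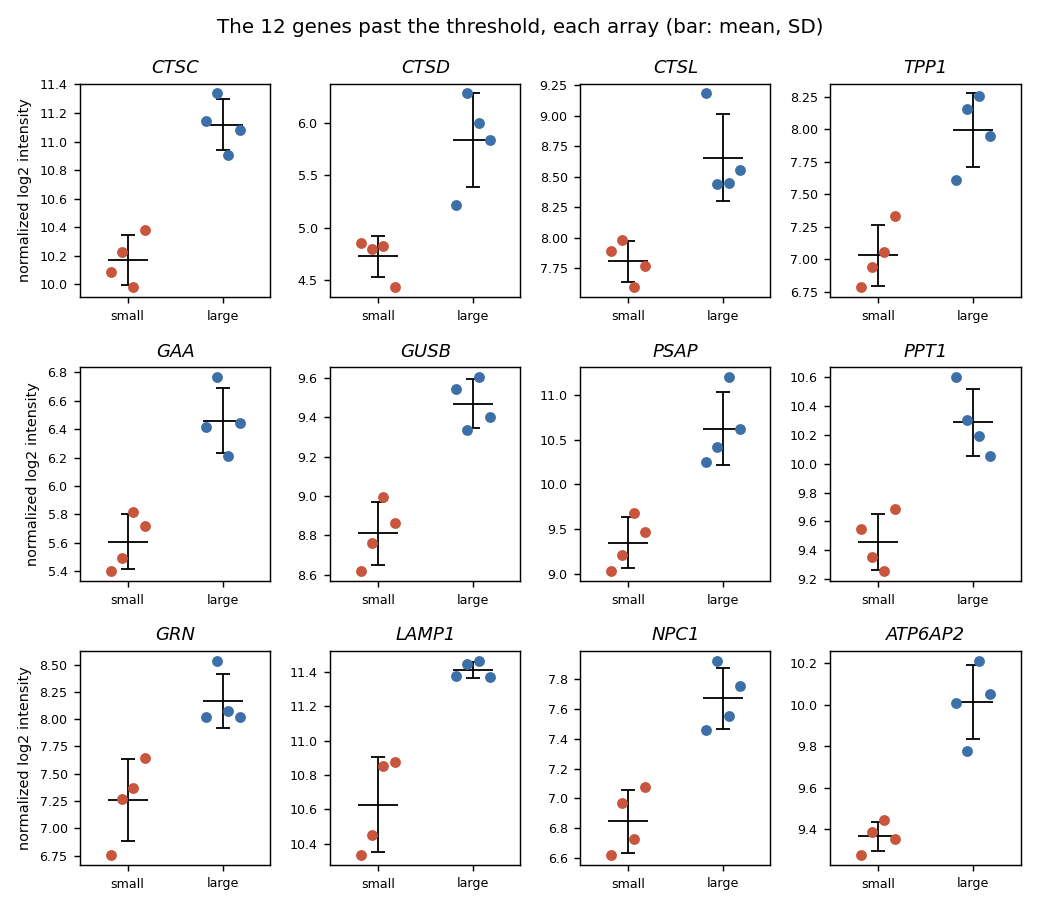
Normalized log2 intensity on each array (points) of the 12 genes past the threshold, small left of large, with the mean and SD of the 4 arrays; each panel has its own axis. In every panel the 4 small arrays lie below the 4 large arrays.

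Among the glycosidases, which cut sugars from glycoproteins, glycolipids and glycosaminoglycans, 2 of 8 tested were lower and all 8 had a difference below 0. Of all genes 1.69% were lower and 44% had a difference below 0. GUSB, beta-glucuronidase, had 8.62, 8.76, 9.00 and 8.86 on the small arrays, against 9.54, 9.33, 9.60 and 9.40 on the large arrays. It was 1.58-fold lower (-0.66 ± 0.14 SE, limma adjusted p = 0.0286). GAA, the acid alpha-glucosidase that is missing in Pompe disease, had 5.40, 5.50, 5.82 and 5.72 on the small arrays, against 6.42, 6.77, 6.21 and 6.44 on the large arrays. It was 1.80-fold lower (-0.85 ± 0.20 SE, limma adjusted p = 0.0474), and neither gene's groups overlapped. GUSB passed in 3 of 8 fits with 1 array left out and GAA in 1.

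HEXA, the alpha subunit of beta-hexosaminidase A, had 6.80, 7.50, 7.24 and 7.11 on the small arrays, against 7.85, 7.97, 7.71 and 7.52 on the large arrays. Small array 2 came just below large array 4, and the gene did not pass (-0.60 ± 0.19 SE, limma adjusted p = 0.117). Its other tested probe sets were dimmer, with differences of -0.0083, 0.32 and -0.0048. GLA, alpha-galactosidase A, had 7.68, 8.03, 7.66 and 7.99 on the small arrays, against 8.40, 8.22, 8.01 and 8.12 on the large arrays, which overlapped (-0.34 ± 0.16 SE, limma adjusted p = 0.306). NEU1, NAGLU, FUCA1 and MAN2B1 lay between -0.35 and -0.07. The sulfatases GALNS (-0.33 ± 0.29 SE) and IDS (-0.12 ± 0.24 SE), which take sulfate from glycosaminoglycans, did not pass in limma, nor at an unadjusted p under 0.05, and the 5 tested IDS probe sets ran from -0.86 to 0.68. ARSA, the third sulfatase, had 2 probe sets with mean levels of 3.24 and 2.77, under the 3.62 needed for testing.

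All 7 membrane proteins had a difference below 0, against 44% of all genes. LAMP1, a heavily glycosylated protein that lines the lysosomal membrane, had 10.33, 10.45, 10.85 and 10.87 on the small arrays, against 11.38, 11.44, 11.46 and 11.37 on the large arrays. The large arrays lay close together and all small arrays lay below them, 1.72-fold lower on average (-0.78 ± 0.13 SE, limma adjusted p = 0.0113). A second LAMP1 probe set was also lower (-1.13 ± 0.18 SE, limma adjusted p over probe sets = 0.013), while 2 dim ones, at mean levels of 5.01 and 3.99, had 0.06 and 0.11. NPC1, which exports cholesterol from the lysosome, had 6.62, 6.97, 6.72 and 7.08 on the small arrays, against 7.46, 7.92, 7.55 and 7.75 on the large arrays. It was 1.77-fold lower without overlap (-0.83 ± 0.18 SE, limma adjusted p = 0.0317) and passed in 2 of 8 fits with 1 array left out.

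LAMP2, the relative of LAMP1 whose 2A form takes part in chaperone-mediated autophagy, had 7.34, 6.49, 6.79 and 6.72 on the small arrays, against 7.77, 7.27, 7.85 and 7.86 on the large arrays. Small array 1 reached above large array 2, and the difference of -0.85 ± 0.21 SE missed the threshold (limma adjusted p = 0.0595). All 4 LAMP2 probe sets were below 0, from -0.85 to -0.33. SCARB2, the receptor that carries beta-glucocerebrosidase to the lysosome, had 8.18, 7.87, 8.18 and 8.26 on the small arrays, against 8.85, 8.68, 8.42 and 8.60 on the large arrays. These did not overlap, and its 4 probe sets were all below 0 as well (gene: -0.51 ± 0.15 SE, limma adjusted p = 0.111). CLN3, the cystine exporter CTNS and the cation channel MCOLN1 lay at -0.29, -0.14 and -0.19, and MCOLN1, dim and with values between 2.65 and 4.90, had a 95% interval from -1.41 to 1.03.

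In the V0 sector 4 of 5 subunits had a difference below 0, with a median of -0.45, and in the V1 sector 3 of 7, with a median of 0.09. The share of all genes below 0 was 44%. None of either passed in the main limma fit. With the replicate number as a block, ATP6V0B and ATP6V0C were lower, where 3.48% of all genes were. At an unadjusted p under 0.05 in the main fit, 3 of 5 V0 subunits were lower and 1 of 7 V1 subunits higher, beside the 8% and 8.51% of all genes. The V0 median stayed below 0 and the V1 median above 0 in each of the other 21 settings tried. These settings are not separate checks. The replicate block, the fit with no variance trend and the other filters on dim probe sets left both medians unchanged, at -0.45 and 0.09. The fits with 1 array left out shared most of their arrays. The difference between the sectors was not tested.

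Of the V0 subunits, ATP6V0C, the proteolipid of the rotor ring, had 7.61, 7.76, 7.53 and 7.66 on the small arrays, against 8.13, 8.73, 8.29 and 8.08 on the large arrays. ATP6V0B, another ring subunit, had 7.17, 7.36, 7.56 and 8.05 on the small arrays, against 8.20, 8.51, 8.22 and 8.16 on the large arrays. The groups did not overlap for either, and the differences were -0.66 ± 0.17 SE and -0.74 ± 0.19 SE (limma adjusted p = 0.0678 and 0.0717). Each passed in 1 of 8 fits with 1 array left out. ATP6V0A1, the large subunit that forms the proton path with the ring, was at -0.45 ± 0.19 SE, ATP6V0D1 at -0.31 ± 0.24 SE and ATP6V0E1 at 0.13 ± 0.13 SE. The 5 tested ATP6V0E1 probe sets lay between -0.21 and 0.13.

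Of the V1 subunits, ATP6V1G1 in the stalk had 10.62, 10.23, 10.24 and 10.18 on the small arrays, against 10.25, 10.01, 9.75 and 9.77 on the large arrays. Large array 1 lay within the range of the small arrays (0.37 ± 0.15 SE, limma adjusted p = 0.221). ATP6V1E1, its partner in the stalk, had 9.44, 9.40, 9.28 and 9.38 on the small arrays, against 9.21, 9.43, 8.92 and 8.83 on the large arrays, and large array 2 lay among the small ones (0.28 ± 0.15 SE, limma adjusted p = 0.392). ATP6V1A, which holds the catalytic site, was at -0.04 with a 95% interval from -0.48 to 0.39, and ATP6V1B2, its noncatalytic partner, at -0.17 with an interval from -0.54 to 0.19. ATP6V1C1, ATP6V1D and ATP6V1H were at 0.31, 0.09 and -0.26, and did not pass.

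The accessory subunits are membrane proteins bound to V0. ATP6AP2, also known as the prorenin receptor, had 9.28, 9.39, 9.44 and 9.36 on the small arrays, against 10.01, 9.78, 10.21 and 10.05 on the large arrays. The small arrays lay close together and below all large ones, 1.56-fold lower (-0.65 ± 0.13 SE, limma adjusted p = 0.0236), and the call held in 4 of 8 fits with 1 array left out. ATP6AP1 had 6.44, 6.44, 5.53 and 7.11 on the small arrays, against 7.05, 7.74, 7.61 and 7.49 on the large arrays. Small array 4 overlapped large array 1, and the difference of -1.09 ± 0.28 SE, or 2.13-fold lower, did not pass (limma adjusted p = 0.067).

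**Figure D3:**
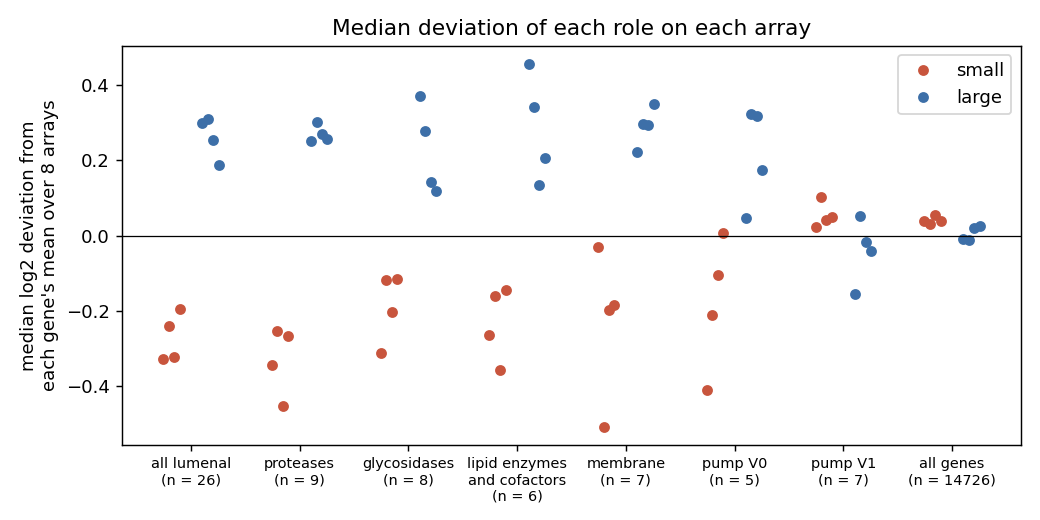
Median over the members of each role (and over all genes) of the deviation from each gene's mean over the 8 arrays, on each small (red) and large (blue) array, in log2 units. For all lumenal genes the small arrays lie between -0.33 and -0.20 and the large arrays between 0.19 and 0.31, and for V1 all 8 arrays lie between -0.15 and 0.10.

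Medians by role on each array are given as a description, without a test. The lumenal median lay between -0.33 and -0.20 on the small arrays and between 0.19 and 0.31 on the large arrays. For membrane proteins it ran from -0.51, on small array 2, to -0.03, on small array 1, against 0.22 to 0.35 on the large arrays. For V0 it was between -0.41 and 0.01 on the small arrays and between 0.05 and 0.32 on the large arrays. For V1 it was between 0.02 and 0.10 on the small arrays and between -0.15 and 0.05 on the large arrays.

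**Figure D4:**
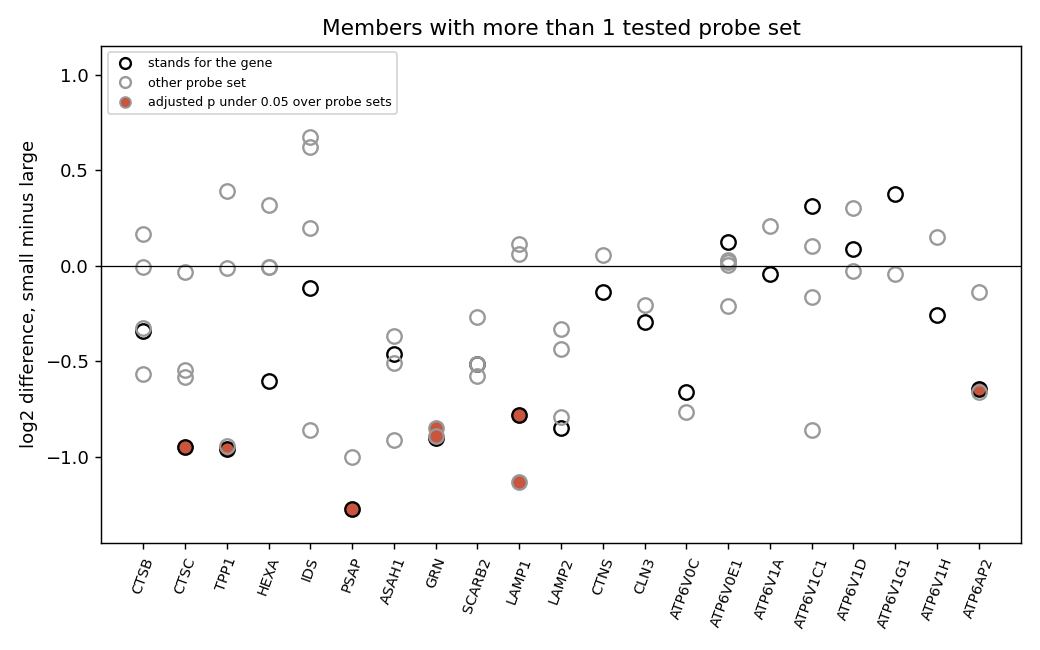
Log2 difference, small minus large, of every tested probe set of the 21 members with more than 1. Black rings mark the probe set that stands for the gene and filled circles those past an adjusted p of 0.05 over probe sets; GRN, ASAH1, SCARB2 and LAMP2 have all their probe sets below 0, while those of IDS lie on either side.

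Probe sets of 1 gene did not always go together. Of the 21 members with more than 1 tested probe set, 12 had probe sets on either side of 0. GRN, PSAP, ATP6AP2, ASAH1, SCARB2, LAMP2, CTSC, CLN3 and ATP6V0C were below 0 on every tested probe set. When the probe sets of a gene were averaged, 9 members were lower, where 1.41% of all genes were. Of the 9, 8 were among the 12, while CTSC, TPP1, LAMP1 and ATP6AP2 of the 12 did not pass the threshold. With the 3 prime to 5 prime difference of the arrays as a covariate, 6 members were lower, where 0.917% of all genes were. These were CTSC, CTSL, GUSB, PSAP, PPT1 and LAMP1.

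TFEB itself was near the lower end of the arrays. Its probe sets had mean levels of 3.21 and 3.15, below the 3.62 needed for testing. The brighter one had 4.76, 2.35, 2.27 and 3.97 on the small arrays, against 2.15, 2.61, 3.67 and 3.91 on the large arrays, and the other ran from 2.65 to 3.86 on the small and from 2.90 to 3.37 on the large arrays. The groups overlapped on each, and no difference was detectable at these levels. Its relative TFE3 had means of 8.04 on the small and 8.04 on the large arrays, and MITF, which did not pass, had a difference of 0.38 ± 0.33 SE.

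The promoters of the set were searched for the E-box CACGTG and for the CLEAR core TCACGTGA, which contains it; each reads the same on both strands. Windows of 300 bases, from 250 before to 50 after the gene's start, came from RefSeq (GRCh38.p14) and were found for 38 of the 51 genes. The core was in a window of 8 of these genes, or 21.1%, against 2.04% of 11776 tested genes with a window, and the E-box in 11, or 28.9%, against 12.1%. By role the core was in 3 of 21 lumenal, 3 of 6 membrane and 2 of 10 pump genes. Of 11 genes called lower 2 had the core, and of 24 tested genes not called 6 had it. The median log2 difference was -0.32 over the 8 tested genes with the core, -0.74 over the 3 with an E-box but no core and -0.48 over the 24 with no E-box.

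The windows of 4 genes are shown because they hold the core and have differences on either side of 0, from -0.85 to 0.37. LAMP1 and GAA were lower, MCOLN1 did not pass, and ATP6V1G1 had the highest difference of the set. All lie on the plus strand, at chr13:113296989-113297288, chr17:80101331-80101630, chr19:7522374-7522673 and chr9:114587519-114587818. Capitals mark E-boxes, with the flanking T and A where the core is complete.
LAMP1: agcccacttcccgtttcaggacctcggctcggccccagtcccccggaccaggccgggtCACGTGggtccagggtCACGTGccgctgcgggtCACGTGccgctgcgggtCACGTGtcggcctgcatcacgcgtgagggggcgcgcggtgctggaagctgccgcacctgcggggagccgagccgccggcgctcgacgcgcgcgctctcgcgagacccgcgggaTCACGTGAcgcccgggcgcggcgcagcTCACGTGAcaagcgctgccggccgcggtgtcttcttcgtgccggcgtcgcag
GAA: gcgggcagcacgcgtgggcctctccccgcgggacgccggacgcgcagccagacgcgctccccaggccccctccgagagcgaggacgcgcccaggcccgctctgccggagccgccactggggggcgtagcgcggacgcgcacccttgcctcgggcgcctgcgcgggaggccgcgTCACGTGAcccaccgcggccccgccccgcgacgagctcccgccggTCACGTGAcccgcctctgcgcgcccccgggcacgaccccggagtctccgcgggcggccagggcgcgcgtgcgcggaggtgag
MCOLN1: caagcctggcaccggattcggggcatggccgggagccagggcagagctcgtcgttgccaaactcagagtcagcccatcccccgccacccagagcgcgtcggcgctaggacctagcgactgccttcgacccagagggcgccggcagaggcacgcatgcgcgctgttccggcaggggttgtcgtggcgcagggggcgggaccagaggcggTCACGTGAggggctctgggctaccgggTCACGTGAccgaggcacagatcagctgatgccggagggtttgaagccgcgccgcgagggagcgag
ATP6V1G1: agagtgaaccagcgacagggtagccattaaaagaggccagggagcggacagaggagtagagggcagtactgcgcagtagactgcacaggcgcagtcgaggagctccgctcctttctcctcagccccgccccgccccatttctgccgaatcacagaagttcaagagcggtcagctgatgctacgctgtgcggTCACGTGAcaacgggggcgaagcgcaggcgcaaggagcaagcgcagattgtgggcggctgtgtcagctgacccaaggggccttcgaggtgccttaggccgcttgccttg
LAMP1 had 6 E-boxes, and 2 of them were complete cores, starting 29 and 2 bases before the gene's start. GAA had cores 77 and 32 bases before its start, MCOLN1 42 and 15 before, and ATP6V1G1 1 core 59 before. A match is a description of the letters and not evidence of binding in these cells.

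**Figure D5:**
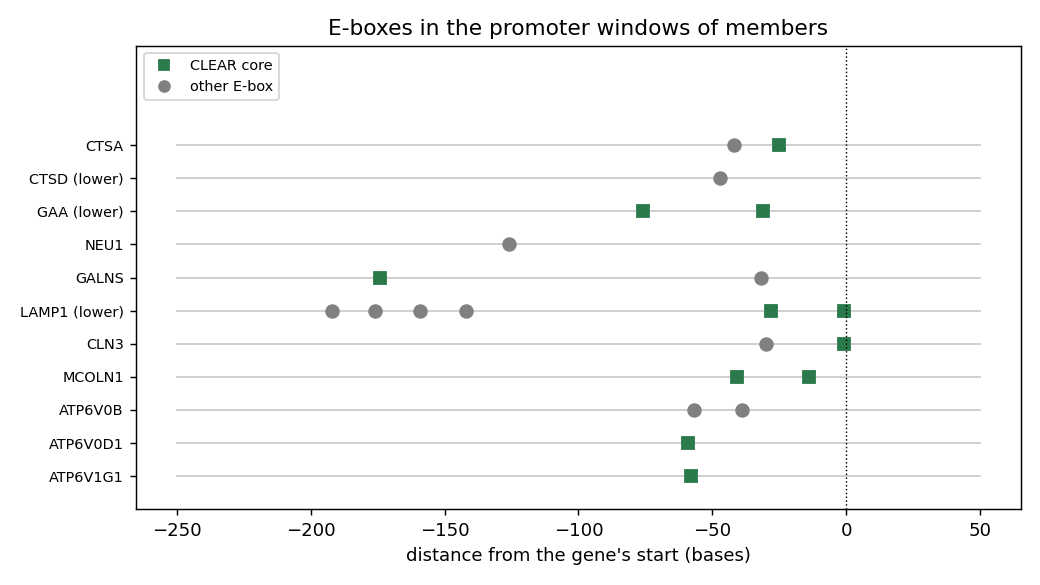
E-boxes (grey circles) and CLEAR cores (green squares) in the promoter windows of the 11 members that have any, by distance in bases of the E-box from the gene's start (dotted line); for a gene with several windows the first is drawn. Genes lower in small cells are marked, and cores occur in LAMP1 and GAA among these and in genes that did not pass, such as MCOLN1.

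Other lysosomal genes were taken from 4 lists by function. Over all genes tested, 1.69% were lower and 0.299% higher, with a median of 0.05. Of 27 other lumenal genes tested, 4 were lower and none higher, with a median of -0.34: PCYOX1, a prenylcysteine oxidase (-1.18 ± 0.24 SE), SCPEP1, a carboxypeptidase (-0.98 ± 0.22 SE), CTSV, and SUMF1, which activates sulfatases in the endoplasmic reticulum (-0.71 ± 0.17 SE). Of 28 other membrane proteins 5 were lower and none higher, with a median of -0.34. They included the two-pore channel TPCN1 (-1.23 ± 0.26 SE), the peptide transporter SLC15A4 (-0.72 ± 0.17 SE), the cobalamin exporter LMBRD1 (-0.70 ± 0.16 SE) and the amino acid sensor SLC38A9 (-0.65 ± 0.14 SE). Of 15 other pump subunits and assembly factors tested, only ATP6V0A2, a V0 subunit, was lower (-0.86 ± 0.17 SE, limma adjusted p = 0.026), with a list median of -0.12. Of 20 regulators of the lysosome and of mTORC1, the kinase complex that lysosomes host, none passed in limma, 4 were higher at an unadjusted p under 0.05, beside 8.51% of all genes, and the median was 0.08. The GTPase RRAGD (0.59 ± 0.17 SE) and the zinc finger protein ZKSCAN3 (0.55 ± 0.19 SE) had the smallest p among these.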

How the data were processed

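Total RNA from 4 small and 4 large sorts of H1 cells was labelled by 3 prime amplification and hybridised to 1-colour Affymetrix arrays, per the labels' protocols. The authors read the scans with GeneChip Operating Software and imported them into Rosetta Resolver 7.1, per the series design text. The deposited table holds a linear intensity for each of 54675 probe sets and 8 arrays, and the background correction and scaling behind it are not given in the sources used here. Groups and replicate numbers come from the sample titles.

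The 62 control probe sets were set aside. Intensities were taken to log2 after adding 1.813, the 10th percentile of all values, which understates the change of dim genes, and were quantile-normalized between arrays. Probe sets with a mean over the 40th percentile (3.62) were tested, 32768 in all, 96 of them of the 49 members found. Genes were named through GEO's platform annotation with symbols updated by gene ID (41037 of 41091 probe sets with 1 symbol; 1801 had several and 11721 none), and a gene was represented by its tested probe set with the highest mean, which gave 14726 genes.

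The small and large groups entered 1 fit in limma 3.58.1 under R 4.3.3, using lmFit and eBayes with a variance trend. Tests were two-sided, and p-values were adjusted over all genes by the Benjamini-Hochberg method with a threshold of 0.05. A standard error (SE) is limma's moderated one and rests on 4 arrays in each group (median over all genes 0.24). The procedure was checked on simulated data. The sources used here do not say that sorts came from separate cultures, so p-values may measure a partly technical spread. They do not say either whether equally numbered sorts belong together, and the fit ignores any such pairing. Every member called is described with its value on each array, and in each role the 2 members with the smallest p among those not called; from each list of other genes up to 4 called genes with the largest difference, or else 2 with the smallest p. The members, lists and alternatives were chosen with earlier results of these data known, so lists get counts and medians and no test. The alternatives were 3 scalings, 2 pseudocounts, 2 filters, a replicate block, no variance trend, 2 choices of probe sets, an RNA quality covariate, 8 fits leaving out 1 array and 1 leaving out 2.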

Additional observations from a re-analysis of the deposited data

Results flagged for a closer look

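In 6 of the 94 groups of 4 arrays, 1 array stood apart from the other 3, its gap to the nearest of them, as a share of the group's range, being over Dixon's 95% critical value, where chance gives about 1 in 20. The ratio was 0.907 for GRN in large cells, where large array 2 was at 8.53 and the others at 8.02 to 8.07. It was 0.866 for CTSD in small cells, with small array 4 at 4.43 and the others at 4.79 to 4.85. It was 0.846 for CTSL in large cells, with large array 1 at 9.18 and the others at 8.44 to 8.55. It was 0.869 for ATP6V1G1 in small cells, with small array 1 at 10.62 and the others at 10.18 to 10.24. For LAMP2 in large cells (0.836) large array 2 was at 7.27 and the others at 7.77 to 7.86, and for ATP6V0A1 in large cells (0.836) large array 1 was at 6.61 and the others at 7.07 to 7.16. Without large array 2 GRN did not pass and LAMP2 did. CTSL passed without large array 1, and in no other of the 8 fits with 1 array left out.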

How the results depend on the processing

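Main values were 12 members lower, 0 higher, and medians of -0.50 (lumenal), -0.51 (membrane) and -0.22 (pump). No member was higher in any of the 21 other settings. The members lower in limma were 0 on the scaling as deposited, 0 after centring arrays on their medians and 0 with no variance trend. No other gene passed in these settings either, and 7, 16 and 23 members were lower at an unadjusted p under 0.05. Without _x_at and _s_at probe sets 5 of 33 tested members were lower, where 1.4% of all genes were. With the 3 prime to 5 prime covariate 6 members were lower, where 0.917% of all genes were. With 1 array left out 3 to 15 were lower, the most without large array 1, where 0.408% to 2.43% of all genes were. Equally numbered sorts had deviations from their group means that correlated at 0.11, 0.13, 0.23 and 0.01 for numbers 1 to 4. For numbers 1 to 3 the small and the large array were each other's best partner, and for number 4 they were not. The fibroblast marker COL3A1 had 7.65, 8.55, 6.73 and 4.91 on small arrays 1 to 4, against 7.97, 8.39, 6.28 and 5.10 on large arrays 1 to 4. LUM kept the same order on both sides, while COL1A1 did not. DCN was lowest on number 4 on both sides, at 4.07 on the small and 3.79 on the large array, while numbers 1 and 2 swapped places. Over all tested genes, small array 3 correlated at 0.956 with large array 3 and at most at 0.953 with a small array. Large array 3 correlated most with large array 4 (0.966). The labels give no shared origin, and the p-values given here are unpaired. Whether equal numbers shared a culture was not tested. With the replicate block 18 members were lower, the 12 and CTSA, LIPA, LAMP2, ATP6V0B, ATP6V0C and ATP6AP1, and 513 of all genes were lower and 240 higher. The lumenal median was -0.58 on the deposited scaling, -0.43 on median-centred arrays and -0.43 on arrays scaled to the 75th percentile. It was -0.37 with the mean of all probe sets and -0.60 without large array 1 and small array 3. In that last setting 13 members were lower, where 3.12% of all genes were, and the pump was at -0.34. Without _x_at and _s_at probe sets the membrane median was -0.83 and the pump median -0.0071. The median of all genes moved by -0.10 on the deposited scaling, and relative to it the medians there were -0.53, -0.54 and -0.25. Scaling to the 75th percentile called 148 of all genes lower and 67 higher, against 249 and 44. Signs changed for genes near 0: CTSZ was -0.10 on the deposited scaling, NPC2 0.085 and ATP6V1A 0.10 on median-centred arrays, 0.087 and 0.10 on arrays scaled to the 75th percentile, and NPC2 0.23 and FUCA1 0.13 without large array 1 and small array 3. With the mean of all probe sets IDS was 0.10, ATP6V1A 0.082, ATP6V0E1 -0.0066 and ATP6V1C1 -0.15, and without _x_at and _s_at probe sets TPP1 was 0.39. With 1 array left out CTSZ ran from -0.069 to 0.25, FUCA1 from -0.16 to 0.026, IDS from -0.34 to 0.057, NPC2 from -0.17 to 0.12, MCOLN1 from -0.62 to 0.10 and ATP6V1A from -0.20 to 0.11. The cause of these changes was not tested, except that other probe sets or fewer arrays entered where named. ARSA, TFEB and MCOLN1 are too dim for small differences to be seen.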
